A study of Homo sapiens with 4 samples.

Results

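The strong constitutive distal regions of HL-60 cells were 2035 of the 78063 accessible regions found in any of 4 ATAC-seq libraries. Peaks of the 4 lists were merged into regions wherever they overlapped by at least 1 bp. A region was kept when every list had a peak in it and the highest peak ranked at or above the 75th score percentile of its own list in every library. Its centre also had to lie more than 2 kb from the nearest protein-coding transcription start site (TSS), of which the annotation gave 78564 positions. Of 23653 regions present in all 4 lists, 15284 were distal in this sense and 2086 of them passed the percentile minimum everywhere. Of these, 51 were left out because the ATRA and control percentiles were separated by 10 points or more, 25 with ATRA higher and 26 with control higher. The members were thus chosen by their score percentiles, which are given below as a description with no test. Comparisons were made with the 13198 other distal regions in all 4 lists that did not reach the percentile minimum.

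HL-60, a human line of promyelocytic leukemia, matures toward granulocytes in all-trans retinoic acid (ATRA). The ATRA group was kept in 1 µM ATRA over 4 days and the control group in an equal volume of its solvent, ethanol, with medium and agent renewed on the same schedule in both groups. Each group had 2 replicates, so all 4 libraries came from 1 line grown in the same medium. ATAC-seq measures where the Tn5 transposase can insert adapters, and the deposited lists held 43494 and 63541 peaks for ATRA replicates 1 and 2 and 42081 and 45903 peaks for control replicates 1 and 2.

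Distal accessible DNA includes enhancers, insulators and promoters of non-coding genes. CTCF is a zinc finger protein that binds insulators and, with cohesin, anchors chromatin loops. PU.1, RUNX and CEBP proteins are the main regulators of myeloid enhancers, AP-1 binds signal-responsive enhancers, and GATA factors act in progenitor, erythroid and mast cells. Small nuclear RNA (snRNA) genes, whose products form the spliceosome, carry strong compact promoters.

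The sequences below come from members outside exons that ranked among the first 3 with a match of the same consensus. All 3 are given for CTCF and PU.1, the first for AP-1 and GATA and the second for RUNX, and none for CEBP. They are shown because the motif content of the strongest regions is the main result. Each is 100 bases of hg19, read 5′ to 3′ on the strand of the match, with the match in capitals.
CTCF member 1, chr7:48031453-48031552, plus strand: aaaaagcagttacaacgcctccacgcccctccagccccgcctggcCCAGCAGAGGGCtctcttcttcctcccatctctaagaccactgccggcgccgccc
CTCF member 2, chr19:41076693-41076792, plus strand: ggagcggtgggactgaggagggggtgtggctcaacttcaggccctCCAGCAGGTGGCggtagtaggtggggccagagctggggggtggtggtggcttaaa
CTCF member 3, chr7:127087595-127087694, minus strand: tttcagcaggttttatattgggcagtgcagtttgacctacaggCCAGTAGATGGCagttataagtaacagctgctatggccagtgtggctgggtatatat
PU.1 member 1, chr13:105792258-105792357, minus strand: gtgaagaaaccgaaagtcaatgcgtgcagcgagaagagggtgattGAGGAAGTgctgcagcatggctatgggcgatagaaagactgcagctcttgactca
PU.1 member 2, chr2:208288751-208288850, minus strand: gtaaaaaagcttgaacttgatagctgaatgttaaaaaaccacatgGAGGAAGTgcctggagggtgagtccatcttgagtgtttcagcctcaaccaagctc
PU.1 member 3, chr9:95826956-95827055, plus strand: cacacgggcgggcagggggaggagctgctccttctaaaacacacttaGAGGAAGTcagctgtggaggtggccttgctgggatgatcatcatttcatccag
RUNX member 2, chr7:41921388-41921487, plus strand: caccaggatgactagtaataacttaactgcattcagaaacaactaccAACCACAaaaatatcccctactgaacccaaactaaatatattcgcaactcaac
AP-1 member 1, chr13:45492356-45492455, plus strand: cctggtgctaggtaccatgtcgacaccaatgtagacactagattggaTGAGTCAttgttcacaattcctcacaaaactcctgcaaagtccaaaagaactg
GATA member 1, chr2:92269229-92269328, plus strand: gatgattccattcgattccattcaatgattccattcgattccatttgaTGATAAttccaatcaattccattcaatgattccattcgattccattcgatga
CTCF member 1 lay in an intron of SUN3, 12329 bp upstream of a start site of HUS1. Its percentiles were 92.84 and 97.89 in the ATRA replicates and 95.44 and 98.8 in the control replicates. CTCF member 2, in an intron of SPTBN4, stood at 93.98 and 95.05 with ATRA and at 95.47 and 91.87 in control. CTCF member 3 was intergenic, 15626 bp upstream of ZNF800, with percentiles of 91.82, 94.6, 90.16 and 95.53 in the same order. These were the top-ranked CTCF matches, and the groups overlapped in each of them. PU.1 member 1 was intergenic, 326150 bp upstream of DAOA, with percentiles of 96.71 and 99.14 with ATRA and 99.13 and 99.05 in control. PU.1 member 2 also held a RUNX match in the same 200 bp, and its 4 percentiles lay between 96.68 and 97.01. PU.1 member 3 lay in an intron of SUSD3. GATA member 1 lay in an array of short repeats 1730966 bp from the nearest protein-coding start site, so a consensus match there was not a single site in ordinary sequence.

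The members were ranked alike by the 4 libraries because the rule asked for it. The lowest score of a member's highest peak was 180.75 in ATRA replicate 1, 196.56 in ATRA replicate 2, 168.01 in control replicate 1 and 143.11 in control replicate 2, and the highest was 3100 in each list. The deposited score is the peak caller's value on a scale that was not stated. The percentile of a member differed between its highest and lowest library by 9.14 points at the median, with a range from 0.00266 to 24.6. The range was within 5 points in 475 members and within 10 points in 1152. The lowest of the 4 percentiles was at least 90 in 527 members, at least 95 in 210 and at least 99 in 65.

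Accessibility was not in the same order in every member. Both ATRA percentiles lay above both control percentiles in 447 members (22.0%) and both lay below in 376 (18.5%), and the groups overlapped in the remaining 1212. Among all regions in 4 lists, ATRA was higher without overlap in 29.2% and control in 12.8%. A separation of 10 points or more was seen in 16.3% of the regions in all 4 lists and in 18.6% of the distal ones, and no member has it by construction. Just inside the separation limit were a region 361970 bp from ADAM29, 1 upstream of RAB31 and 1 near KRCC1, at 9.9, 9.86 and 9.83 points with ATRA higher. Just outside it was a region 21766 bp upstream of CD38, the gene of a cell surface enzyme, with percentiles of 86.29 and 87.86 with ATRA and 97.87 and 98.0 in control. At the percentile limit, a region 57691 bp upstream of RUNX3 was included by its value in control replicate 2, which lay at the limit, and regions in introns of MBOAT1 and CD48 were left out at 74.96.

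The members had wider peaks than the other shared distal regions in every library. The median width of the highest peak was 569 and 778 bp in the ATRA libraries and 594 and 555 bp in the control libraries, in replicate order. The corresponding medians of the other shared distal regions were 318, 492, 319 and 307 bp. Width and score come from the same peak call, so this comparison is a description of what the rule chose. ATRA replicate 2 had the longest list and the widest peaks in both sets, and the ATRA replicates differed by more than the group means did.

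**Figure D1:**
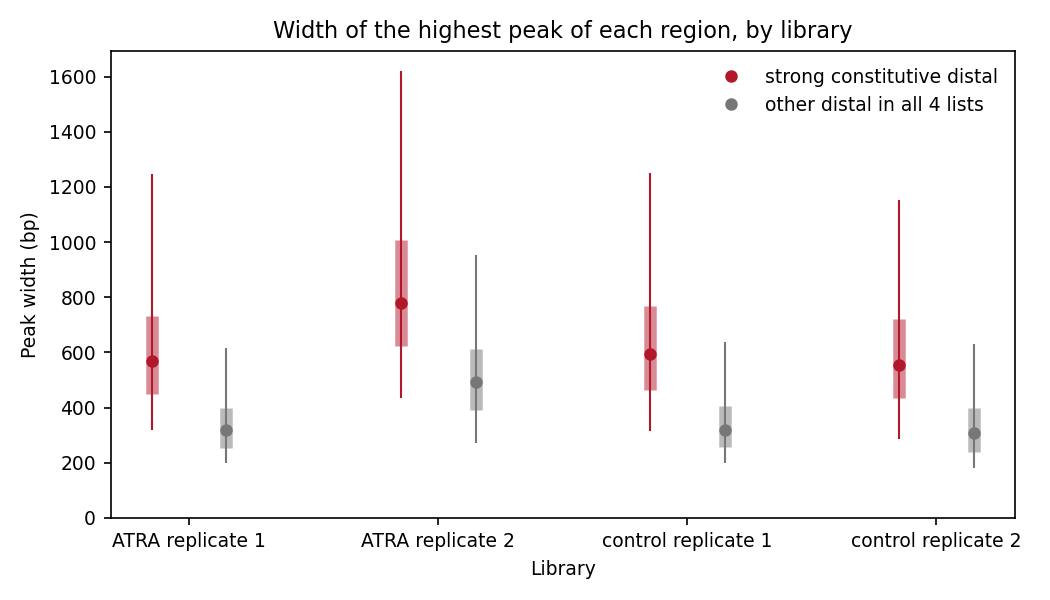
Width in bp of the highest peak of each region by library, for the strong constitutive distal regions (red) and the other distal regions in all 4 lists (grey). Points are medians, thick bars the middle 50% and thin lines the 5th to 95th percentile. Medians of the red set lie between 555 and 778 bp and those of the grey set between 307 and 492 bp.

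Each library had many strong distal peaks that were not members. Of 4791 and 9257 distal peaks at or above the 75th percentile in ATRA replicates 1 and 2, 42.5% and 22.1% lay in members. For control replicates 1 and 2 these shares were 41.2% and 30.2% of 4958 and 6795 peaks. The groups overlapped, and the difference within the ATRA group was larger than that between the group means.

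The CTCF consensus was scarcer in the members than in the other shared distal regions. An exact match of its 12-letter consensus on either strand stood in the central 200 bp of 58 members, or 2.85% (95% Wilson interval 2.21 to 3.67), against 10.2% (9.7 to 10.7) of the other shared distal regions and 5.87% of all regions. The consensus was in 4.36% of distal regions found in 1 list. It was in 1.37% of regions within 2 kb of a protein-coding TSS in all 4 lists, below the share of the members. The size and direction of the contrast thus depended on the set compared. The intervals here cover counting error over regions of the same 4 libraries, and regions are not replicates. By the lowest percentile of the region, the share was 10.6% below 25, 11.4% from 25 to 50 and 8.28% from 50 to 75. Within the members it was 4.8% from 75 to 80, 3.73% from 80 to 85, 1.9% from 85 to 90 and 0.946% from 90 to 95. No match was found in the 210 members at 95 or above, which allows a share of up to 1.43% by the limit of 3 counts and of 1.8% by the Wilson interval. In this class PU.1 (3.81%), RUNX (6.19%), CEBP (7.62%), AP-1 (5.24%) and GATA (11.4%) were also below their shares from 90 to 95. The last step was thus not particular to CTCF. The same consensus read backwards, which should mark no site, matched 0 members and 4 of all regions. So long a consensus seldom matches without a site, so these counts could not show an effect of base composition.

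The scarcity was also seen over a longer stretch. Over the whole region, 5.11% of members and 11.7% of the others held a match, although the members were wider. With 1 mismatch allowed the shares were 8.85% and 28.3%. When ATRA replicate 1 was left out, 2599 regions met the rule and the CTCF share was 4.66%, more than 1.5 times the share with all libraries. The 58 CTCF-holding members ranked lower in replicate 1 of both groups, with a median percentile of 83.9 in each, than in replicate 2, with 92.5 for ATRA and 92.0 for control. For all members the medians were 88.5 and 89.2 in replicate 1 and 93.0 and 92.1 in replicate 2. Their peaks were narrow, with median widths of 397, 590, 414 and 409 bp in the same library order. The ATRA and control percentiles overlapped in 53 of the 58 and in 1212 of all 2035 members.

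**Figure D2:**
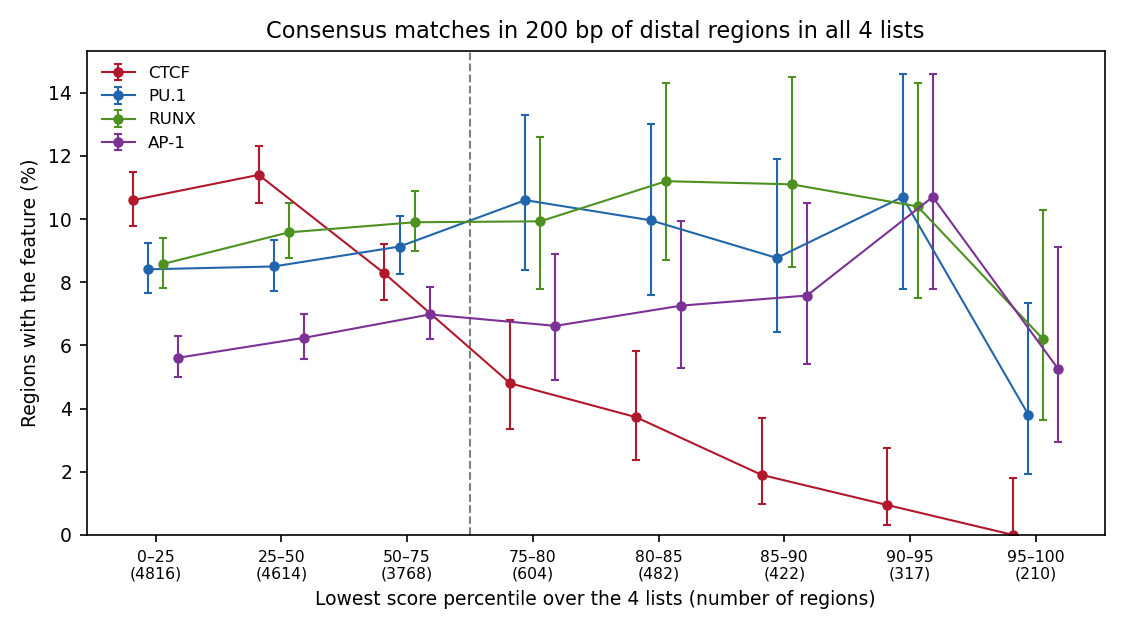
Share of distal regions in all 4 lists with an exact CTCF, PU.1, RUNX or AP-1 consensus in the central 200 bp (y axis, percent) by the lowest score percentile over the 4 lists (x axis, number of regions in brackets), without the 51 regions above the 75th percentile that were left out as separated. Classes below 75 hold all other shared distal regions, separated or not. Bars are 95% Wilson intervals, and the dashed line marks the 75th percentile, to the right of which lie the members. CTCF falls from 11.4% between 25 and 50 to 0 of 210 above 95, and PU.1 and RUNX stay near 8 to 11% until the last class.

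The few CTCF members were far apart and showed no prevailing orientation. Neighbouring CTCF members with a single match formed 36 pairs on the same chromosome, at a median distance of 21.6 Mb. Of these 10 were convergent (27.8%), 9 divergent and 17 in tandem (47.2%). The convergent arrangement, in which the motifs point at each other, is the one known from loop anchors, but loops were not measured by these lists.

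In the central 200 bp, motifs of myeloid regulators had shares over all members close to those of the other shared distal regions and of all regions. The PU.1 consensus GAGGAAGT was found in 191 members, 9.39% (8.19 to 10.7), against 8.65% of the other shared distal regions and 8.94% of all regions. The RUNX consensus AACCACA was found in 207 members, 10.2%, against 9.3% and 8.55% in those sets. CEBP, as TTGCNNAA, was in 262 members, 12.9%, against 13.3% and 12.3%. At least 1 of these 3 motifs was present in 583 members, 28.6%, and in 27.4% of the other shared distal regions. For each of these the value of the other shared distal regions lay within the counting interval of the members. PU.1 was more frequent in members over longer stretches, at 13.9% against 11.5% in 400 bp and 19.1% against 13.4% over the whole region, and the members were wider. At a percentile minimum of 90 it was lower, at 7.97% against 8.79%.

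AP-1 was slightly more frequent in members and GATA slightly less. AP-1, as TGACTCA or TGAGTCA, was in 152 members, 7.47% (6.41 to 8.69), above the 6.22% (5.82 to 6.65) of the other shared distal regions and 5.72% of all regions. GATA, as AGATAA or TGATAA, was in 359 members, 17.6%, below 19.9% and 18.8% in those sets. The reversed GATA letters, which should mark no site, were in 12.2% of members against 15.1% and 14.7%, a difference at least as large as that of GATA itself. In the 51 regions left out as separated, GATA was in 18, or 35.3% (23.6 to 49.0).

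The other motifs were rare. The ETS consensus CCGGAAGT, which shares the letters GGAAGT with PU.1, was in 20 members, 0.983% (0.637 to 1.51), against 0.553% of the other shared distal regions and 1.11% of all regions. The interferon regulatory factor (IRF) consensus was in 2.8% of members, against 3.0% and 3.41% in those sets, and the E-box CACGTG in 4.47%, against 3.79% and 3.73%. The retinoic acid receptor direct repeat with a spacer of 5 letters (DR5), the classic target of ATRA-bound receptors, was in 3 members, 0.147% (0.0501 to 0.433), against 0.053% and 0.0974%. None of the 10 consensus sequences was present in 983 members, 48.3%, against 44.4% of the other shared distal regions and 48.2% of all regions.

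PU.1 and RUNX matches were most frequent at the centre of the members, and AP-1 matches were frequent within about 100 bp of it. In the central 100 bp there were 60.4 PU.1 matches per 1000 members, against 6.39 and 2.46 at 500 bp on either side. RUNX had 65.4 at the centre against 11.3 and 15.7. AP-1 had 38.8 at the centre and 40.8 and 36.4 at 100 bp on either side, against 15.2 at 500 bp on both sides. The other shared distal regions had a central rise too, with 57.7 for PU.1, 59.3 for RUNX and 35.2 for AP-1. CTCF had 17.7 at the centre of members against 77.5 at the centre of the other shared distal regions. GATA had 114 at the centre and 136 and 135 at the flanks, so GATA matches were not concentrated there. Centred letters are a description of position, and binding was not measured.

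**Figure D3:**
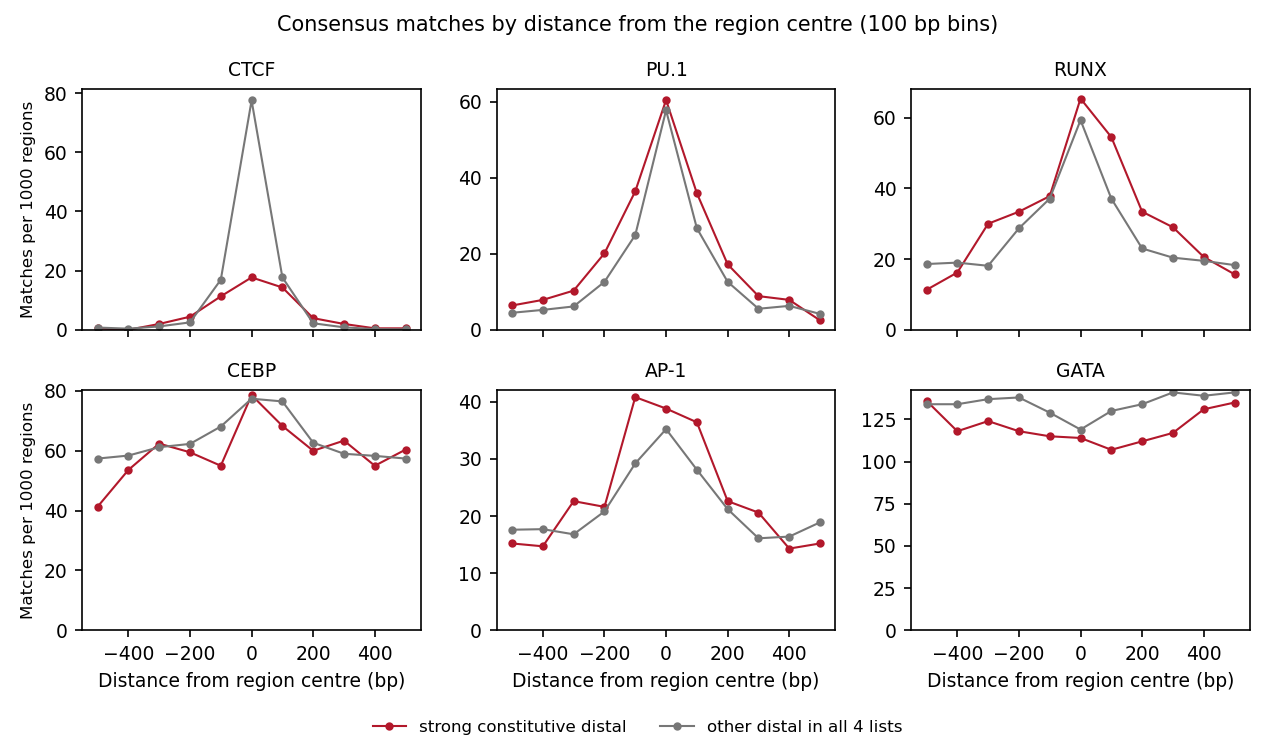
Exact consensus matches per 1000 regions (y axis) in 100 bp bins by distance from the region centre in bp (x axis), with 1 panel for each of CTCF, PU.1, RUNX, CEBP, AP-1 and GATA. Red is the strong constitutive distal set and grey the other distal regions in all 4 lists. The central CTCF point is 17.7 in red and 77.5 in grey, whereas the PU.1 points are 60.4 and 57.7 and the GATA curves have no central rise.

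Words of 8 letters were also counted, without a chosen motif. Of the 10 words with the largest excess in members over the other shared distal regions, the first was CCCCGCCC, the letters of a GC box, which is bound by SP and KLF factors in promoters. It was in 5.65% of members and 2.06% of the others. GCCCCGCC, CCCGCCCC, GCGGGGCC, AGGGGCGG and CTCCGCCC were of the same GC-rich kind. CCACTTCC, which reads GGAAGTGG on the other strand and holds the ETS core of PU.1 sites, was in 7.17% against 5.07%. The words with the largest deficit were AGAGGGCA, at 2.26% against 5.75%, and CCACTAGA, at 1.38% against 4.33%, and both are parts of CTCF-like sites.

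Members were more often rich in G and C, or near starts of non-coding transcripts, than the other shared distal regions were. Although each member lay more than 2 kb from protein-coding start sites, 440 members (21.6%) lay within 1 kb of another annotated transcript start. This was so for 9.97% of the other shared distal regions. Among all regions, which include promoters, the share was 19.6%, close to that of the members. For long non-coding RNA genes this was 301 members (14.8%) against 5.05% and 6.55% in those sets. For pseudogenes it was 85 (4.18%) against 1.45% and 1.36%. GC content of the central 200 bp was 60% or more in 379 members (18.6%), against 9.98% of the other shared distal regions. Among all regions this share was 17.4%, again close to the members. It was 45.5% in the 440 members with a non-coding start. In those 440, PU.1 was found in 5.45% and GATA in 8.41%, against 10.5% and 20.2% of the 1595 members without such a start. Their median percentiles were 92.1 and 94.9 in the ATRA libraries and 91.9 and 93.1 in the control libraries, each above the median of all members in the same library. Of all members, 1506 (74.0%) lay more than 2 kb from any annotated start.

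By location, 749 members (36.8%) were centred in introns of protein-coding genes, 797 (39.2%) between genes and 440 (21.6%) in other annotated genes, and 35 and 14 in untranslated and coding exon sequence. The median distance to a protein-coding start was 38633 bp, against 35214 bp for the other shared distal regions. Another region of any list lay within 5 kb of 24.8% of members and of 30.4% of the others.

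Members overlapped snRNA genes more often than the other shared distal regions did. An annotated snRNA gene was overlapped by 25 members (1.23%, interval 0.833 to 1.81), against 0.121% of the other shared distal regions and 0.0858% of all regions, and by 4.76% of the 210 members at the 95th percentile or above. This class was examined after the strongest members had been seen. The RNU1-2 region, which holds a gene of the U1 snRNA, stood at 99.93 and 99.94 with ATRA and 99.85 and 99.9 in control. The RNU1-1 region stood at 99.92, 99.96, 99.83 and 99.84 in the same order. RNU4ATAC, a gene of the minor spliceosome, stood at 98.41 and 99.15 with ATRA and 98.37 and 98.91 in control. Of 6 regions with U5 genes or pseudogenes, looked at after their values were seen, ATRA was higher without overlap in 4, those of RNU5A-1, RNU5B-1, RNU5E-1 and RNU5F-1. RNU5A-1 stood at 92.37 and 93.65 with ATRA and 82.86 and 80.95 in control. The groups overlapped in RNU5D-1, at 79.44 and 95.89 with ATRA and 93.65 and 87.51 in control, and in RNU5E-6P. ATRA was higher without overlap in 12 of the 25 snRNA regions (48.0%) and control in 2 (8.0%), beside 22.0% and 18.5% of all members and 29.2% and 12.8% of all regions in 4 lists. The U1 and U2 genes belong to families with near-identical copies, so reads may have been placed among copies.

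A second class was a sequence repeated between members. The words AAGCAGAA and AGCAGAAC, both among the 10 with the largest excess, overlap, and an alignment of 121 occurrences in members gave the 27-letter consensus AAAAGCAGAACTACTNATAAGGGTCNA, where N marks letters shared by at most 60%. This class too was found after the values had been seen. With up to 4 mismatches hg19 held 922 copies, and 539 of them (58.5%) lay in an accessible region, 313 (33.9%) in regions of all 4 lists. Copies were in 38 members (1.87%, interval 1.36 to 2.55), against 0.682% of the other shared distal regions and 0.329% of all regions. The words were picked for their excess in members over these other regions, and the consensus was built from members. A higher share in members was thus set by the choice and is no separate result. Of the 38, 32 held 2 or more copies, at a median spacing of 50 bp, and 33 had a central 200 bp that was repeated elsewhere in hg19. No repeat annotation was used, so the family was not named. One of them is printed because it holds the repeated stretch, marked in capitals.
Shared-sequence member, chr12:22707614-22707713, plus strand: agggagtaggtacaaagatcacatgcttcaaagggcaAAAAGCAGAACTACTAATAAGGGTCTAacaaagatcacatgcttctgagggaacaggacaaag
It lay 10297 bp from a start site of C2CD5, with percentiles of 95.76 and 97.6 with ATRA and 98.57 and 98.89 in control. Both control values were above both ATRA values.

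The shared-sequence members tended to rank higher in control. Their median percentiles were 89.1 and 91.2 in the ATRA libraries and 94.6 and 95.8 in the control libraries. Control was higher without overlap in 25 of the 38 (65.8%) and ATRA in 2 (5.26%), whereas among all members these counts were 376 and 447 of 2035. Among all regions in 4 lists, control was higher without overlap in 12.8% and ATRA in 29.2%. A GATA consensus stood in the central 200 bp of 36 of the 38, and the consensus itself reads TGATAA where its first N is G. A further 5 regions with a copy were among the 51 left out as separated. The copies share sequence and are not independent regions, and reads may have been placed among them.

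**Figure D4:**
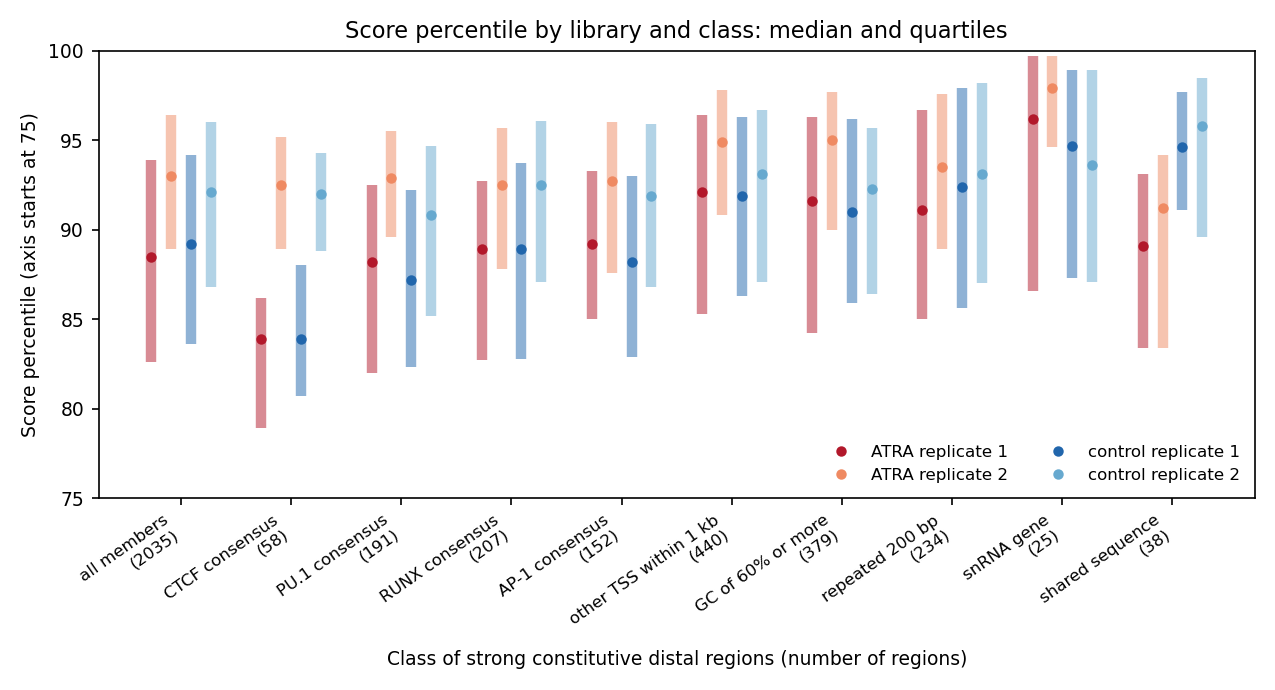
Score percentile (y axis, starting at 75) in each of the 4 libraries for classes of the strong constitutive distal regions (x axis, number of regions in brackets). Points are medians and bars the middle 50%. The CTCF class has medians of 83.9 in replicate 1 and about 92 in replicate 2 of both groups, the snRNA class has the highest ATRA medians of the classes shown (96.2 and 97.9), and the shared-sequence class has control medians of 94.6 and 95.8 against 89.1 and 91.2 with ATRA.

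Repeated DNA was more frequent at the top of the ranking. Each 200 bp window was read as words of 31 letters. It was called repeated when the median word occurred more than 1 time in hg19, the mitochondrial genome not counted. By this measure 234 members (11.5%) were repeated, against 6.03% of the other shared distal regions and 6.06% of all regions. The share was 8.77% in members with a lowest percentile from 75 to 80 and 26.2% in those at 95 or above. Of the 234 repeated members, 42.7% lay within 500 kb of an assembly gap of at least 50 kb, such as a centromere, against 11.5% of all members.

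The 10 members with the highest lowest percentile reached at least 99.97 in every list. Of these, 8 lay within 500 kb of an assembly gap, 6 had a repeated window, 3 held words of the mitochondrial genome, and none held a CTCF or PU.1 match. The first, chr9:66970822-66971771, had a median word that occurred 126 times. The region chr6:58776047-58780191 was 4145 bp wide and centred 2048 bp from a gap. In chr1:564236-570405 and chr13:110076330-110076828, 87.6% and 100.0% of the words were also in the mitochondrial genome. Copy number, mapping quality and blacklisted regions could not be read from the lists, and their part in these ranks was not tested.

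**Figure D5:**
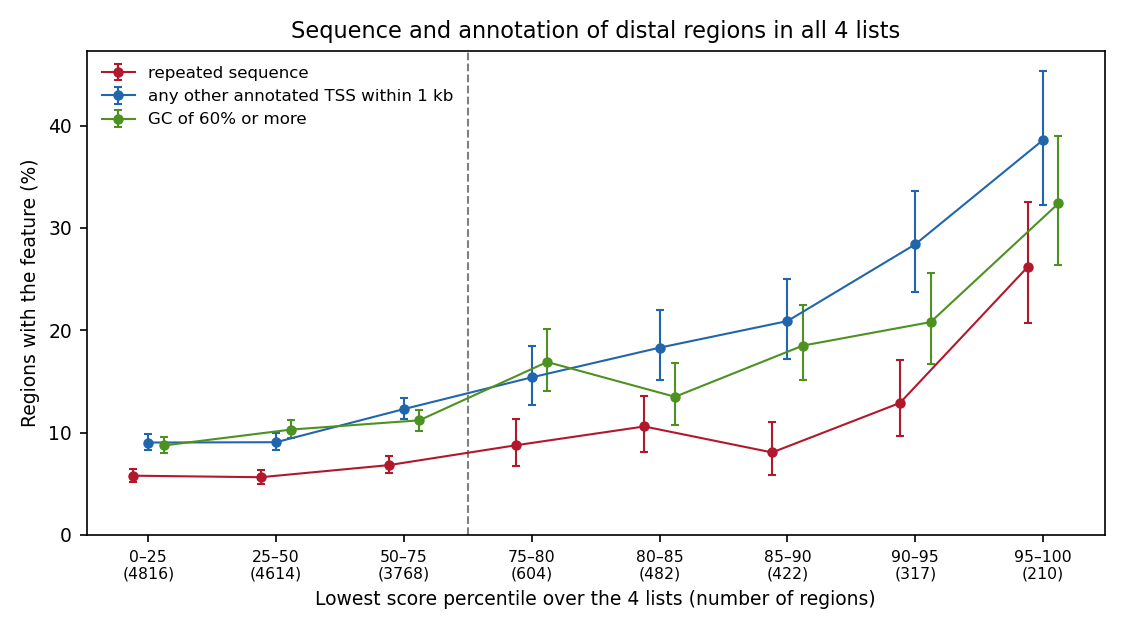
Share of distal regions in all 4 lists (y axis, percent) with repeated sequence, with the start of another annotated transcript within 1 kb, or with GC of 60% or more in the central 200 bp, by lowest score percentile over the 4 lists (x axis, number of regions in brackets), without the same 51 regions. Bars are 95% Wilson intervals, and the dashed line marks the 75th percentile. Repeated sequence rises from 8.77% at 75 to 80 to 26.2% above 95, and other starts from 15.4% to 38.6%.

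CTCF was scarcer in members without the repeated windows too. A window that was not repeated, here called single-copy, could still lie beside an assembly gap or in a copy of mitochondrial DNA. Both chr6:58776047-58780191 and chr1:564236-570405 stayed in this set. In the 1801 members with a single-copy window, CTCF was found in 2.94%, PU.1 in 10.4% and AP-1 in 7.94%, against 10.2%, 8.91% and 6.34% in single-copy windows of the other shared distal regions. For PU.1 the value of the others lay below the members' interval of 9.11 to 11.9 here, unlike with all windows.

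Few hematopoietic regulator genes had a member within 50 kb, but this depended on the distance. A protein-coding gene had a member within 50 kb of a start site in 1817 of 19794 cases (9.18%). Among 30 hematopoietic regulators this was so for GFI1 alone, a zinc finger repressor needed for granulocyte maturation, although 21 of the 30 had some shared distal region within that distance. The GFI1 member, chr1:92925157-92926439, held PU.1 and GATA matches and stood at 93.88 and 98.52 with ATRA and 91.55 and 87.5 in control. Of 46 shared distal regions within 50 kb of the regulators, 1 was a member (2.17%), against 12.7% for all genes. These regulators lay in dense neighbourhoods, with a median of 7.0 other regions within 50 kb of such a region against 5.0 for all genes. Members were nearest to IKZF1, RUNX3, ELF1 and IRF2 at distances from 57178 to 101388 bp, beyond the 50 kb. Within 100 kb, 5 of the 30 regulators had a member, against 3218 of 19794 genes, and 5 were the nearest gene of a member, against 1610 of 19794, so the low count at 50 kb was not seen with these links.

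Of 30 neutrophil genes, 5 had a member within 50 kb (16.7%), against 9.18% of all genes. Neutrophil genes also more often had some shared distal region within that distance, at 73.3% against 47.6%. Among genes with such a region, 22.7% of the list and 19.3% of all genes had a member. The number of neutrophil genes with a member was 3 within 20 kb, 6 within 100 kb and 5 by the nearest gene. For all 19794 genes these counts were 842, 3218 and 1610, and no test was run. NCF1 encodes a cytosolic part of the NADPH oxidase, and CYBB its membrane-bound catalytic subunit. The CYBB member lay 33561 bp from a start site, with percentiles of 89.24 and 92.97 with ATRA and 93.15 and 95 in control. The NCF1 member stood between 96.05 and 98.88, but all its words were repeated, so it cannot be told apart from the NCF1 pseudogene copies. The MPO member lay in an intron of LPO, 40544 bp from MPO, and the FCGR3B member had 31.8% repeated words. The ATRA and control percentiles overlapped in NCF1, MPO and FCGR3B, and in CYBB both control values lay above both ATRA values.

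The remaining lists had few genes with members. The immature myeloid list had PRSS57, the retinoid list CRABP2, the CTCF and cohesin list YY1 and the erythroid list EPOR and GATA1. The lymphoid list had PAX5 and the liver list APOA2, and the list of 12 neuronal genes had none. The erythroid share was 2 of 12 genes (16.7%), the same as that of the neutrophil list. Each of the other lists here had at most 8.33%. The YY1 member, 45135 bp from a YY1 start site and nearer to DEGS2, was at 98.79 and 99.27 with ATRA and 99.21 and 99.51 in control. The EPOR member lay 2800 bp from a start site in an intron of this erythropoietin receptor gene, at 96.98 and 98.2 with ATRA and 97.84 and 87.24 in control. Most counts in these lists were of 1 gene, and no list was set apart from all genes by a test. ST3GAL4, a sialyltransferase gene, had the most members within 50 kb, with 5.

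The members were mostly solitary. When neighbouring members were linked over short gaps, of which the widest was 11876 bp and the narrowest left unlinked 12880 bp, 143 (7.03%) fell into 65 groups of 2 or more. The largest, chr2:92268888-92311196, held 6 members, 3 of them repeated, beside the chromosome 2 centromere. Groups of 3 lay in PCBD2, chr5:134259026-134264210, and in AKNA, chr9:117134062-117161165, a gene of an AT-hook protein, and in COTL1, chr16:84627414-84641824, which encodes an actin-binding protein. The COTL1 group had median percentiles of 84.46 and 91.8 with ATRA and 89.76 and 90.77 in control. By chromosome, members were 13.3% of the shared distal regions, with the highest autosomal share on chromosome 18 (17.2%, 14.4 to 20.5) and the lowest on chromosome 20 (8.33%, 5.19 to 13.1).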

How the data were processed

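The 4 libraries of HL-60 cells were grouped by sample title into ATRA and control with 2 replicates each, which the study's methods call independent biological replicates. Per the labels, the submitters' processing notes name cutadapt, Bowtie2, MACS2 and hg19, while the study's methods name Bowtie for the alignment to hg19 and MACS2 at default settings for the peaks. Each deposited list is of 1 library. Read shifting, duplicates and blacklisted regions were not given in the sources used here. The deposited score was the authors' peak caller value on an unstated scale and was ranked only within a list. No read counts were given, so depth was unknown, and a deeper library can yield more and wider peaks.

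Percentiles were taken within each list with mean ranks for ties. Start sites, genes and exons were those of GENCODE release 44 lifted to GRCh37, the same assembly as hg19, and no list had a peak beyond the end of a chromosome (0 peaks). Positions are counted from 1. Motifs were searched on both strands in 200 bp about the region centre. The CTCF and DR5 consensus had 12 and 17 letters. Intervals are 95% Wilson intervals. The members and gene lists were chosen with earlier results of these data known, and no test was run, because the rule used the measured scores. Named regions were the 10 highest by lowest percentile, the 10 largest groups, members near listed genes, up to 3 per motif, and those next to each limit. The snRNA genes and the shared sequence were added after the values had been seen. Some members that these rules select are not reported here. All 146 list genes matched the annotation. The functions were tested on simulated lists with planted members and motifs. Alternatives changed the percentile minimum, the TSS distance, the number and width of peaks, the motif window and letters, the libraries and the gene distance. Python 3.11.15, numpy 2.4.6, pandas 2.3.3, scipy 1.17.1, pysam 0.24.0, numba 0.67.0, matplotlib 3.10.9 and samtools 1.23.1 were used.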

Additional observations from a re-analysis of the deposited data

How the results depend on the processing

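The number of members was 5337 with a percentile minimum of 50 and 527 with 90, and it ranged from 1975 to 2599 when a library was left out. The CTCF share was 6.75% at a minimum of 50, 0.569% at 90, 1.47% in a window of 100 bp, 4.52% in 400 bp, 5.11% over the whole region and 8.85% with 1 mismatch, and 2.92% to 4.66% when a library was left out. In each of these settings it was below the share of the other shared distal regions. The PU.1 share was 7.97% at a minimum of 90 (other shared distal regions 8.79%), 11.0% with peaks of 200 bp (9.48%), 5.36% in 100 bp (5.32%), 13.9% in 400 bp (11.5%), 19.1% over the whole region (13.4%) and 31.5% with its 6-letter core (29.8%), and 8.54% to 10.0% when a library was left out. The ATRA minus control difference in the share of strong distal peaks lying in members was -3.44 percentage points, and -17.5 to 6.54 when a library was left out. With all libraries it was 3.6 with an equal number of peaks per list and 0.414 at a minimum of 90. Its sign thus rested on single libraries and on these settings. The convergent share was 23.7% to 31.2% when a library was left out and 100.0% of 1 pair at a minimum of 90. List genes with a member numbered 13, and 5 within 20 kb and 23 within 100 kb. In all, 49 values of these results, some of them given above, stayed within the 95% interval of a share, 1.5 times a count or 1 SD between replicates of the main value. The other 19 values lay beyond these limits. A value within 1 SD could still differ in sign. Of 30 counts for single gene lists and all genes at other distances or by the nearest gene, 18 differed by more than 1.5 times from that at 50 kb. Limiting windows to single-copy sequence and measuring distance from any annotated TSS were chosen after seeing the data. No paired analysis was possible because the results come from no test. Within replicate 1 the share of strong distal peaks lying in members was 42.5% with ATRA and 41.2% in control, and within replicate 2 it was 22.1% and 30.2%. Depth, copy number and read placement in repeats could not be measured from peak lists.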
